A study of Mus musculus with 27 samples.

Results

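Control of the G1 phase of the cell cycle was followed through 10 genes in C2C12 myoblasts, with or without NFIA, before and during culture under adipogenic conditions: 5 inhibitors of cyclin-dependent kinases (Cdkn1a, Cdkn1b, Cdkn1c, Cdkn2c and Cdkn2d), the 3 D cyclins (Ccnd1, Ccnd2 and Ccnd3) and 2 pocket proteins (Rb1 and Rbl1). They were taken by gene symbol from the expression tables, and all 10 were found among the 24825 genes measured by RNA-seq of polyadenylated RNA. C2C12 is an established mouse myoblast line. Control cells, cells carrying retroviral 3xFLAG-tagged full-length NFIA and cells carrying the Δpro#3 mutant, which lacks the C-terminal end of NFIA, were each sampled in 3 replicates at day 0, before differentiation was induced, at day 7 of adipogenic culture, and at day 7 after 10 µM forskolin for 4 h. All 9 groups grew in serum-containing medium, and every day 7 group, control cells included, had received isobutylmethylxanthine, indomethacin, dexamethasone, insulin, T3 and rosiglitazone, then insulin, T3 and rosiglitazone. The retrovirus drives NFIA in whatever cell it enters, at levels set by the vector, and all groups stem from 1 cell line. Nothing in the labels says that replicates were separate cultures, so the p-values below measure the spread between these samples only.

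D cyclins bind Cdk4 and Cdk6 and carry the growth signal of serum to the retinoblastoma family of pocket proteins, whose phosphorylation releases the E2F factors that drive the genes of DNA replication. Inhibitors of the INK4 family (Cdkn2c encodes p18, Cdkn2d p19) occupy Cdk4 and Cdk6, whereas those of the Cip/Kip family (Cdkn1a encodes p21, Cdkn1b p27, Cdkn1c p57) act more broadly on cyclin and kinase pairs. In myoblasts, p21, p57, cyclin D3 and the retinoblastoma protein are known for the permanent exit from the cell cycle that accompanies fusion into myotubes, and in adipocyte precursors cyclin D3, p27 and p18 change as the cells stop dividing.

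The libraries held between 9567769 and 27230965 fragments on genes. Nfia itself was at 225 to 250.2 FPKM in NFIA cells at day 0, at 457 to 528 at day 7 and at 497 to 594 with forskolin. In mutant cells it was at 397 to 423, 374 to 480.5 and 262 to 344 FPKM, so that the mutant was above full-length NFIA at day 0, overlapped it at day 7 and was below it with forskolin. The part of these levels in the differences between mutant and NFIA cells was not tested. In 8 of the 9 control samples it was at 0.879 FPKM or less, and the day 0 control replicate 2 was at 7.35. No member's difference between cell types at a given time point lost its call without that replicate. The summed level of 9 muscle markers ran from 1410 to 1493 FPKM in control cells at day 0, from 137 to 145 in NFIA cells and from 411 to 421 in mutant cells. At day 7 the same sum was at least 9997 FPKM in control cells, between 1779 and 2405 in NFIA cells and at least 11400 in mutant cells, whereas the sum of 7 adipocyte markers was highest in NFIA cells (at least 13350 FPKM, against 613 to 2006 in mutant and 344 to 380 in control cells). Replicate 1 of mutant cells at day 7, of NFIA cells with forskolin and of mutant cells with forskolin stood apart from the other replicates of its group, with a chi-square per gene of 11.9 to 15.0 between fragment counts where every other pair of replicates had 1.55 to 6.64. The adipocyte marker sum of the mutant replicates at day 7 was 2006, 613 and 721 FPKM, and with forskolin 895, 542 and 578. Without these 3 libraries together, an alternative chosen after seeing the data, no count of members called moved by over 1.5 times, and 5 of 180 calls of single members changed. The cells were bulk cultures, so fewer cells of a type and less RNA per cell cannot be told apart. Among markers of other cell types, Ptprc, Adgre1, Pecam1, Cdh5, Epcam and Cdh1 were at or near 0, and the leukocyte sum, nearly all of it the macrophage and lysosome marker Cd68, was at most 26.4 FPKM.

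The level of all 10 genes in every sample is plotted first, in FPKM, a fragment count scaled by gene length and library size, which allows levels of different genes to be set side by side. Differences are given as log2 fold changes of FPKM + 1 with a standard error (SE), from limma fitted across all genes, with adjusted p-values from the same fit. A gene is said to have risen or fallen only at an adjusted p-value under 0.05.

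**Figure D1:**
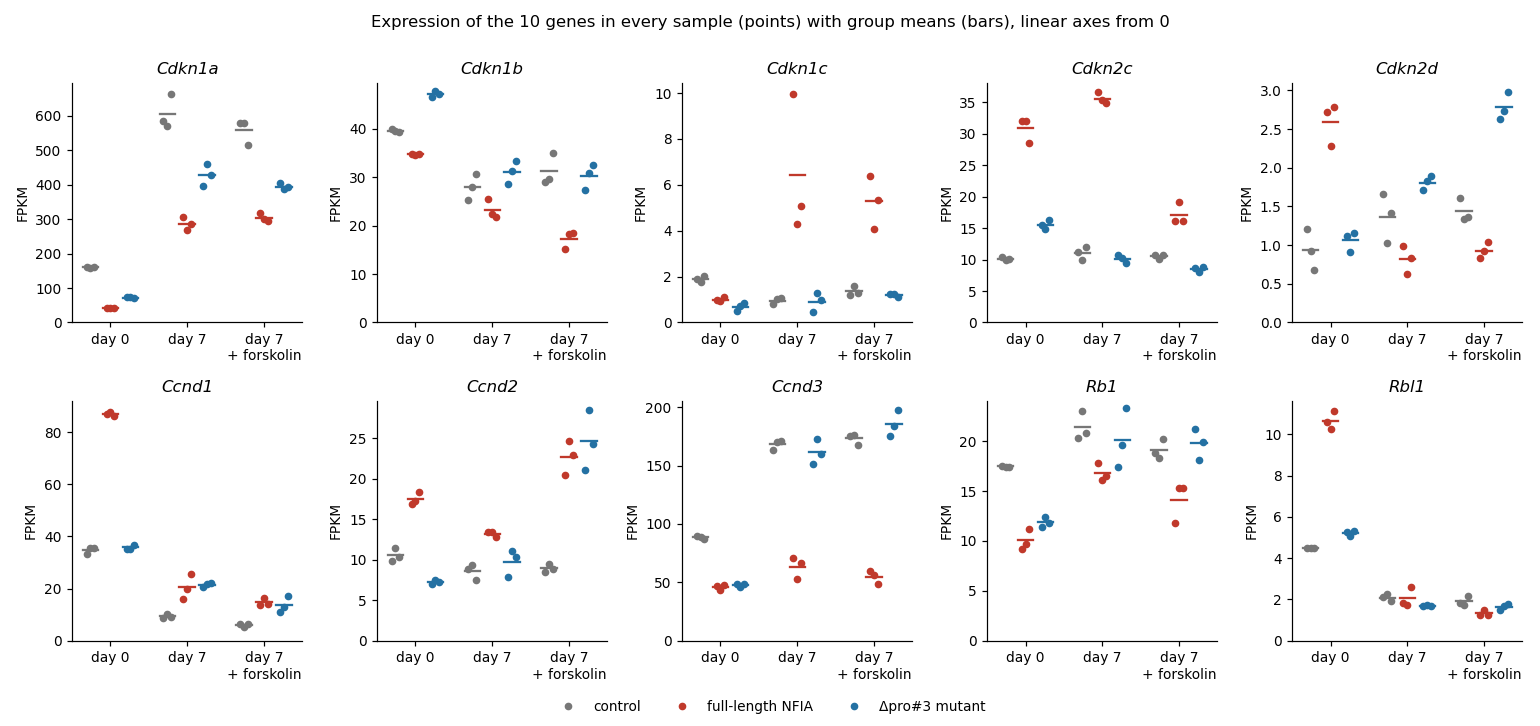
Each panel plots the FPKM of 1 gene on a linear axis from 0, with a point for each of the 3 replicates of a group and a bar at their mean. Cdkn1a is lowest in NFIA cells at day 0 (mean 41.1 FPKM) and highest in control cells at day 7 (607), Ccnd1 is highest in NFIA cells at day 0 (86.9), and Ccnd3 stays at or under 70.7 in every NFIA sample.

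Cdkn1a, the p21 gene, was the most abundant of the 10 in control cells at all 3 conditions and showed the largest fall of the 10 in NFIA cells at day 0. At day 0 its level in the 3 control samples was 160.5, 159.6 and 162 FPKM. In NFIA cells it was 41.2, 41.3 and 40.8 FPKM. In mutant cells it was 73.5, 73.1 and 70.1 FPKM. The 3 cell types did not overlap, with the mutant between the other two. In log2 terms Cdkn1a fell by 1.94 in NFIA cells (SE 0.027, adjusted p = 7.5e-13), a 3.84-fold change of FPKM + 1, and by 1.14 in mutant cells (SE 0.027, adjusted p = 1.2e-10). Mutant cells had more Cdkn1a than NFIA cells, by 0.80 (SE 0.027, adjusted p = 1.5e-09).

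By day 7 Cdkn1a had risen in all 3 cell types, and on the log2 scale most in the cells that began low. Control cells reached 585, 570.2 and 664 FPKM. NFIA cells reached 306, 269 and 286 FPKM, and mutant cells 398, 460.3 and 429.7. The order of the cell types was the one seen at day 0, again with no overlap. From day 0 to day 7 the log2 change was 1.91 (SE 0.060) in control, 2.77 (SE 0.060) in NFIA and 2.55 (SE 0.060) in mutant cells, with adjusted p = 3.7e-14, 1.8e-16 and 6.8e-16. The rise was larger than in control cells by 0.87 in NFIA cells (SE 0.085, adjusted p = 1.1e-07) and by 0.65 in mutant cells (SE 0.085, adjusted p = 1.2e-05). At day 7 the log2 difference from control was still -1.07 in NFIA cells (SE 0.080, adjusted p = 8.0e-07) and -0.50 in mutant cells (SE 0.080, adjusted p = 6.8e-04). Forskolin gave no call for Cdkn1a in any cell type: the log2 responses were -0.12, 0.08 and -0.12 in control, NFIA and mutant cells, with adjusted p = 0.29, 0.35 and 0.22. With median-ratio scaling the response of NFIA cells was 0.22 and passed (adjusted p = 0.022).

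Cdkn1a lies at chr17:29227924-29237667 on the plus strand of mm9. Its upstream and downstream starts, as RefSeq gives them on the later build GRCm38.p6, are shown because the genes most like Cdkn1a in level, named at the end, were genes of muscle fibres; each window runs from 250 bases before to 50 after the start. Capitals mark an E-box, the sequence CAGCTG that basic helix-loop-helix factors such as MyoD and myogenin recognise. It was found in the window at chr17:29090729-29091028, starting 37 bases after that window's start site, and not in the window at chr17:29093519-29093818. CAGCTG is present in 16.3% of the 32851 mouse windows of that length, on either strand, so that 1 match in a window is a description only.
Cdkn1a, upstream start, plus strand: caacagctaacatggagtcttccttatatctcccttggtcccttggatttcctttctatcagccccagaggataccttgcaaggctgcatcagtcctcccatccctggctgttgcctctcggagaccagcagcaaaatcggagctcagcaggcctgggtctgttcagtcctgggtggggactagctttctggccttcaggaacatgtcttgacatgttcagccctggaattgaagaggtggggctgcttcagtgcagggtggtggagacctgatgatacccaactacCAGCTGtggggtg
Cdkn1a, downstream start, plus strand: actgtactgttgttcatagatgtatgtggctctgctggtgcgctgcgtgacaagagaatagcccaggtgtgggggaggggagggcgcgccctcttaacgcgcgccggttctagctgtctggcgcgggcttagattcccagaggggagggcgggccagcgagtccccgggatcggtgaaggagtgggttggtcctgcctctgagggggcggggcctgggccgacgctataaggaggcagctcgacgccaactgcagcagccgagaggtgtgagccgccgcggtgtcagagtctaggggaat

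Cdkn1b, the p27 gene (chr6:134870419-134875531, plus strand, mm9), differed little in level between cell types at day 0. Control samples had 39.9, 39.5 and 39.4 FPKM. NFIA samples had 34.8, 34.6 and 34.9 FPKM, and mutant samples 46.5, 47.8 and 47.2. The 3 groups did not overlap: the log2 difference from control was -0.18 in NFIA cells (SE 0.024, adjusted p = 4.7e-05) and 0.25 in mutant cells (SE 0.024, adjusted p = 7.9e-06). From day 0 to day 7 Cdkn1b fell in control (log2 change -0.49), NFIA (-0.57) and mutant cells (-0.59), each with an SE of 0.065 and an adjusted p of 2.5e-06 or less, and no difference between these falls passed (adjusted p = 0.41 or more in the 3 pairs). At day 7 the level was 25.4, 27.9 and 30.6 FPKM in control cells, 25.5, 22.3 and 21.8 in NFIA cells and 28.6, 31.2 and 33.3 in mutant cells. Control overlapped both other groups. The difference of NFIA from control cells was -0.26 (SE 0.086, adjusted p = 0.020), and it did not pass without control replicate 3, NFIA replicate 2 or NFIA replicate 3 (adjusted p from 0.062 to 0.080) or with median-ratio scaling (adjusted p = 0.13). After forskolin the NFIA samples lay below all others. They fell to 15.2, 18.3 and 18.5 FPKM (log2 response -0.40, SE 0.097, adjusted p = 0.0021), while control cells were at 29.1, 29.6 and 35.0 (0.15, adjusted p = 0.30) and mutant cells at 27.4, 30.9 and 32.5 (-0.03, adjusted p = 0.81). The response of NFIA cells differed from that of control cells by -0.55 (SE 0.14, adjusted p = 0.0059). It was not shown to differ from that of mutant cells (mutant minus NFIA 0.37, SE 0.14, adjusted p = 0.066), although this passed with the replicate block (adjusted p = 0.033) and without mutant forskolin replicate 1 (0.43, adjusted p = 0.036).

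Cdkn1c, the p57 gene (chr7:150644255-150646955, minus strand, mm9), was scarce except in differentiated NFIA cells. At day 0 control samples had 1.91, 1.78 and 2.01 FPKM, NFIA samples 0.984, 0.918 and 1.09, and mutant samples 0.517, 0.712 and 0.834. Both constructs were thus below control with no overlap, at log2 differences of -0.54 for NFIA (SE 0.077, adjusted p = 8.3e-05) and -0.78 for the mutant (SE 0.077, adjusted p = 6.9e-06). With 0.1 in place of 1 added to the FPKM these differences were -0.87 and -1.36. At day 7 the direction was turned in NFIA cells, which had 9.96, 4.27 and 5.09 FPKM against 0.811, 1.01 and 1.05 in control and 0.455, 1.27 and 0.989 in mutant cells. Replicate 1 of the NFIA cells was far above the others, and the lowest NFIA sample was above every sample of the other 2 cell types. Cdkn1c was higher in NFIA than in control cells by 1.85 (SE 0.25, adjusted p = 6.8e-05, 3.61-fold of FPKM + 1) and lower in mutant than in NFIA cells, at -1.92 (SE 0.25, adjusted p = 7.4e-05). Mutant and control cells were not separated (-0.06, SE 0.25, adjusted p = 0.86). From day 0 to day 7 Cdkn1c rose by 1.82 in NFIA cells (SE 0.20, adjusted p = 2.6e-07) and fell in control cells (-0.57, SE 0.20, adjusted p = 0.016), a fall that did not pass without control day 7 replicate 1 (-0.51, adjusted p = 0.053) and that was -0.92 with 0.1 in place of 1 added to the FPKM (adjusted p = 0.010). In mutant cells its change was 0.15 (SE 0.20, adjusted p = 0.49). The change in NFIA cells exceeded that in control cells by 2.39 (SE 0.28, adjusted p = 1.1e-06), the largest difference in time course among the 10 genes. Forskolin gave no call in any cell type (adjusted p = 0.42 or more), and after it NFIA cells held 6.39, 4.09 and 5.35 FPKM.

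Summed over the Cip/Kip family, the 3 genes fell from 202 FPKM ± 1.39 (SD, n = 3) in control cells at day 0 to 76.9 ± 0.090 in NFIA cells and 120.1 ± 1.82 in mutant cells. The share of Cdkn1b in that sum went from 19.6% in control to 45.2% in NFIA and 39.3% in mutant cells. At day 7 Cdkn1a made up at least 89.6% of the sum in every sample of every cell type. Cdkn1c never exceeded 2.92% of it, a share reached in NFIA replicate 1.

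Cdkn2c, the p18 gene (chr4:109333481-109339794, minus strand, mm9), was higher in NFIA cells both before and after differentiation. At day 0 control cells had 10.4, 9.93 and 10.2 FPKM. NFIA cells had 32.0, 32.1 and 28.5 FPKM, and mutant cells 15.4, 14.9 and 16.3. The 3 groups did not overlap: Cdkn2c was above control by 1.51 in NFIA cells (SE 0.050, adjusted p = 4.5e-10) and by 0.57 in mutant cells (SE 0.050, adjusted p = 2.7e-06). At day 7 NFIA cells were at 36.6, 35.3 and 34.8 FPKM, whereas mutant cells (10.7, 10.2 and 9.525) overlapped control cells (11.2, 9.94 and 11.9). NFIA exceeded control by 1.61 (SE 0.070, adjusted p = 1.5e-08, 3.05-fold of FPKM + 1), and the mutant differed from NFIA by -1.72 (SE 0.070, adjusted p = 1.5e-08). Mutant cells fell from day 0 to day 7 by a log2 change of -0.57 (SE 0.062, adjusted p = 2.4e-07), a course that differed from that of control cells by -0.67 (SE 0.087, adjusted p = 1.0e-05) and from that of NFIA cells by -0.77 (SE 0.087, adjusted p = 9.4e-07).

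Forskolin for 4 h brought Cdkn2c down in NFIA cells to 16.1, 19.2 and 16.2 FPKM, below every untreated NFIA sample at either time. The log2 response was -1.02 (SE 0.073, adjusted p = 9.9e-09), and it was stronger than in control cells by -0.96 (SE 0.10, adjusted p = 4.2e-06). In control cells, at 10.8, 10.1 and 10.8 FPKM, the response was -0.05 (SE 0.073, adjusted p = 0.67). In mutant cells, at 8.73, 7.99 and 8.89 FPKM, it was -0.22 (SE 0.073, adjusted p = 0.025), which did not pass without mutant day 7 replicate 1 or 2 or mutant forskolin replicate 2 (adjusted p from 0.057 to 0.11), nor with median-ratio scaling (adjusted p = 0.061). NFIA cells stayed above control cells after forskolin, by 0.65 (SE 0.076, adjusted p = 1.7e-05). None of the motifs searched was found in either Cdkn2c window, of which the upstream one (chr4:109666707-109667006 of GRCm38.p6, RefSeq) is shown as the start of the inhibitor with the largest forskolin response; the motifs were the NFI recognition sequence TTGGCA, the E-box CAGCTG, the E2F sites TTTCCCGC and TTTGGCGC and the cyclic AMP response element TGACGTCA, on both strands.
Cdkn2c, upstream start, minus strand: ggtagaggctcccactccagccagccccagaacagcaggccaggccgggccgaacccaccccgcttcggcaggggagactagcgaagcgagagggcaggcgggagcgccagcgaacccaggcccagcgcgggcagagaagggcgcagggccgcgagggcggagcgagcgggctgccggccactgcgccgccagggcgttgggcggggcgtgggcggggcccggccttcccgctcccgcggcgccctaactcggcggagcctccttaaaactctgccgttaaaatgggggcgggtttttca

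Cdkn2d, the p19 gene (chr9:21092907-21095653, minus strand, mm9), was low throughout, at 0.631 to 2.98 FPKM. At day 0 it was highest of the 3 cell types in NFIA cells, with 2.72, 2.28 and 2.78 FPKM. Control cells then had 1.21, 0.925 and 0.679 FPKM, and mutant cells 1.11, 0.913 and 1.15. Control and mutant overlapped (0.10, SE 0.10, adjusted p = 0.43), while NFIA cells stood above control by 0.90 (SE 0.10, adjusted p = 1.2e-05). At day 7 the order was turned, with 0.988, 0.631 and 0.827 FPKM in NFIA, 1.65, 1.03 and 1.41 in control and 1.71, 1.83 and 1.89 in mutant cells. Cdkn2d fell over the 7 days in NFIA cells (-0.99, SE 0.11, adjusted p = 3.3e-07) and rose in mutant cells (0.45, SE 0.11, adjusted p = 0.0014). The course of NFIA cells differed from that of control cells by -1.27 (SE 0.16, adjusted p = 1.6e-06) and from that of mutant cells by 1.44 when taken as mutant minus NFIA (SE 0.16, adjusted p = 5.8e-07). With 0.1 in place of 1 added to the FPKM the fall in NFIA cells was -1.57, these differences were -2.08 and 2.29, the rise in mutant cells was 0.72, and the differences of NFIA from control cells were 1.40 at day 0 and -0.67 at day 7. The rise in control cells (0.29, adjusted p = 0.025) did not pass without control day 0 replicate 2 or 3 or control day 7 replicate 1 or 3 (adjusted p from 0.053 to 0.15). Without control day 0 replicate 3 this rise was 0.19. With 0.1 in place of 1 added to the FPKM it was 0.50 and passed (adjusted p = 0.027). The difference of NFIA from control cells at day 7 (-0.38, SE 0.11, adjusted p = 0.012) did not pass without control replicate 1 (-0.29, adjusted p = 0.053). Forskolin raised Cdkn2d in mutant cells to 2.64, 2.74 and 2.98 FPKM (0.43, SE 0.097, adjusted p = 0.0025), above every untreated mutant sample. In control and NFIA cells the responses were 0.05 and 0.09 (adjusted p = 0.78 and 0.44). The response of mutant cells was not shown to differ from that of control cells (0.38, SE 0.14, adjusted p = 0.13) or NFIA cells (0.34, SE 0.14, adjusted p = 0.091), except that each passed once 1 sample was left out, the first without control day 7 replicate 2 (0.48, adjusted p = 0.047) and the second without NFIA day 7 replicate 2 (0.41, adjusted p = 0.047).

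Of the other INK4 genes, Cdkn2b had 0 fragments in every sample, and Cdkn2a had 1 fragment in the mutant group at day 0, 1 in the forskolin-treated control group and 0 elsewhere. Cdkn2c therefore made up between 74.5% and 98.2% of the measured INK4 RNA.

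The D cyclins moved in different directions. Ccnd1, the cyclin most tightly tied to mitogens (chr7:152115836-152125774, minus strand, mm9), was at 33.3, 35.6 and 35.4 FPKM in control cells at day 0. In NFIA cells it was at 86.9, 87.8 and 86.1 FPKM, and in mutant cells at 35.4, 35.3 and 36.9. NFIA cells were 1.30 above control on the log2 scale (SE 0.033, adjusted p = 5.9e-11), and mutant cells overlapped control (0.04, SE 0.033, adjusted p = 0.27). Ccnd1 fell in all 3 cell types as they differentiated: by a log2 change of -1.79 in control (SE 0.10, adjusted p = 8.7e-11), -2.05 in NFIA (SE 0.10, adjusted p = 1.1e-11) and -0.72 in mutant cells (SE 0.10, adjusted p = 8.7e-06). The fall was smaller in mutant than in control cells by 1.07 (SE 0.15, adjusted p = 2.1e-05). At day 7 mutant cells were above control, with 20.4, 21.7 and 22.3 FPKM against 8.77, 10.1 and 9.21 (1.12, SE 0.13, adjusted p = 1.1e-04). NFIA cells had 16.05, 19.95 and 25.8 FPKM, above control by 1.03 (SE 0.13, adjusted p = 5.2e-05) and overlapping the mutant (0.08, SE 0.13, adjusted p = 0.62). Forskolin lowered Ccnd1 to 6.39, 5.30 and 6.42 FPKM in control cells (-0.56, SE 0.15, adjusted p = 0.011) and to 11.0, 12.8 and 16.9 in mutant cells (-0.64, SE 0.15, adjusted p = 0.0026). In NFIA cells the samples after forskolin, at 13.8, 16.5 and 14.2 FPKM, overlapped those before it; the response was -0.43 (SE 0.15, adjusted p = 0.019), and it did not pass without NFIA day 7 replicate 3 (-0.26, adjusted p = 0.13), without NFIA forskolin replicate 1 or 3, or with median-ratio scaling (-0.30, adjusted p = 0.092). The response of control cells did not pass without its forskolin replicate 2 (-0.48, adjusted p = 0.056). No difference between cell types in this response passed (adjusted p = 0.51 or more).

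Ccnd2 (chr6:127075797-127101066, minus strand, mm9) gave the largest difference in forskolin response of the 10 genes, between mutant and control cells. Without forskolin at day 7 it was at 8.88, 9.30 and 7.48 FPKM in control cells, 13.4, 13.4 and 12.7 in NFIA cells and 7.86, 11.1 and 10.3 in mutant cells, whose difference from control passed only without mutant replicate 1 (0.29, adjusted p = 0.021). After forskolin control cells were at 8.45, 9.41 and 8.87 FPKM (0.06, SE 0.11, adjusted p = 0.79). NFIA cells rose to 20.4, 24.6 and 22.9 FPKM (0.73, SE 0.11, adjusted p = 5.2e-05), and mutant cells to 21.1, 28.5 and 24.2 (1.26, SE 0.11, adjusted p = 3.9e-07). Every treated sample of these 2 cell types was above every untreated one. The response exceeded that of control cells by 0.68 in NFIA cells (SE 0.16, adjusted p = 0.0049) and by 1.20 in mutant cells (SE 0.16, adjusted p = 3.6e-04). In mutant cells 5 of 7 adipocyte markers fell with forskolin and 1 rose (median -1.58, with 35.8% of all genes called). In NFIA cells 2 fell and 1 rose (55.4% of all genes called), and in control cells 1 fell (20.5%). The untreated mutant cells included replicate 1, whose adipocyte marker sum was 2006 FPKM against 613 and 721 in the other replicates. The part of these markers in the response of Ccnd2, Cdkn2d and Ccnd1 was not tested. The mutant response was larger than the NFIA response by 0.52 (SE 0.16, adjusted p = 0.030), but it did not pass without NFIA day 7 replicate 1 or 2, mutant day 7 replicate 1, NFIA forskolin replicate 1 or 3 or mutant forskolin replicate 2 or 3 (adjusted p from 0.050 to 0.082) or with median-ratio scaling (adjusted p = 0.076). At day 0 Ccnd2 was highest in NFIA cells at 16.9, 17.2 and 18.3 FPKM, against 9.79, 11.5 and 10.3 in control and 7.02, 7.47 and 7.19 in mutant cells. The constructs lay on opposite sides of control, at 0.68 for NFIA (SE 0.054, adjusted p = 6.7e-07) and -0.48 for the mutant (SE 0.054, adjusted p = 1.9e-05). Over 7 days Ccnd2 rose in mutant cells (0.37, SE 0.094, adjusted p = 0.0017) and fell in NFIA cells (-0.38, SE 0.094, adjusted p = 0.0014; -0.24, adjusted p = 0.026, with median-ratio scaling). Its fall in control cells (-0.27, adjusted p = 0.014) did not pass without control day 0 replicate 2 (-0.22, adjusted p = 0.071) or control day 7 replicate 3 (-0.19, adjusted p = 0.088).

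Ccnd3, the D cyclin of differentiating muscle (chr17:47642000-47736632, plus strand, mm9), was the main D cyclin of control cells. At day 0 it had 89.3, 88.9 and 87.5 FPKM in control cells. It had 46.9, 43.3 and 48.0 FPKM in NFIA cells and 48.5, 46.2 and 48.5 in mutant cells. NFIA and mutant overlapped (0.05, SE 0.039, adjusted p = 0.27), and both were below control, at -0.93 (SE 0.039, adjusted p = 3.3e-09) and -0.88 (SE 0.039, adjusted p = 1.2e-08). They parted by day 7. Control cells rose to 163, 169.9 and 171 FPKM, and mutant cells to 151, 173 and 159.8, while NFIA cells reached 70.7, 52.97 and 66.1. The rise of mutant cells (1.73, SE 0.077, adjusted p = 2.9e-12) was larger than that of control cells (0.92, SE 0.077, adjusted p = 9.1e-09) by 0.81 (SE 0.11, adjusted p = 1.5e-05). That of NFIA cells (0.44, SE 0.077, adjusted p = 6.1e-05) was smaller than in control cells, with a difference of -0.48 (SE 0.11, adjusted p = 9.3e-04). At day 7 NFIA cells were at -1.41 from control (SE 0.096, adjusted p = 4.0e-07), and mutant cells overlapped control (-0.06, SE 0.096, adjusted p = 0.62). The muscle marker sums given above had the order control, mutant, NFIA without overlap at day 0, where Cdkn1a had this order too and Ccnd3 overlapped in mutant and NFIA cells. At day 7 the sums of control and mutant cells overlapped above NFIA cells, where Ccnd3 did the same and Cdkn1a was lower in mutant than in control cells without overlap. The part of muscle differentiation in the levels of Cdkn1a and Ccnd3 was not tested. After forskolin Ccnd3 was at 59.5, 56.4 and 48.4 FPKM in NFIA cells, 176, 177 and 168 in control and 175, 184 and 197 in mutant cells, and no response passed (adjusted p = 0.80 in control, 0.074 in NFIA and 0.096 in mutant cells). The response of NFIA cells, -0.20, passed without NFIA day 7 replicate 2 (-0.32, adjusted p = 0.0034) or without NFIA forskolin replicate 1 (-0.26, adjusted p = 0.035). That of mutant cells, 0.20, passed with median-ratio scaling (0.24, adjusted p = 0.046) and without NFIA day 7 replicate 2 (adjusted p = 0.038). Without that sample the difference of NFIA from control responses, -0.24, was -0.36 and passed as well (adjusted p = 0.020, against 0.17 with it). The difference between these responses, mutant minus NFIA, was 0.40 (SE 0.13, adjusted p = 0.035), and it did not pass without day 7 replicate 1 or 3 of NFIA or mutant cells, NFIA forskolin replicate 3 or mutant forskolin replicate 2 or 3 (adjusted p from 0.056 to 0.095) or with median-ratio scaling (adjusted p = 0.10). Both Ccnd3 windows of RefSeq (chr17:47504801-47505100 and chr17:47593217-47593516 of GRCm38.p6) are shown beside those of Cdkn1a because these 2 genes had the highest group means of the 10 and both rose over 7 days in every cell type; neither holds any of the motifs searched.
Ccnd3, upstream start, plus strand: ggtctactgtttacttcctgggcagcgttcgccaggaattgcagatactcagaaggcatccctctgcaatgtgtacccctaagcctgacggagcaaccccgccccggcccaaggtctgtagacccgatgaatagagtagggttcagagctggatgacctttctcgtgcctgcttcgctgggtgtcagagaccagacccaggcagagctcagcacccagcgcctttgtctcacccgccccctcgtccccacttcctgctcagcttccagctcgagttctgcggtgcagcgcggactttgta
Ccnd3, downstream start, plus strand: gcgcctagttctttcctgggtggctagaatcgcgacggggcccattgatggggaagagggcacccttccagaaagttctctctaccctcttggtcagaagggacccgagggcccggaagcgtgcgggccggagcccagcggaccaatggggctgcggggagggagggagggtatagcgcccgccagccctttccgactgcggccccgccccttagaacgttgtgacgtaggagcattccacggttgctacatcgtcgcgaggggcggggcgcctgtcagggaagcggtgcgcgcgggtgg

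**Figure D2:**
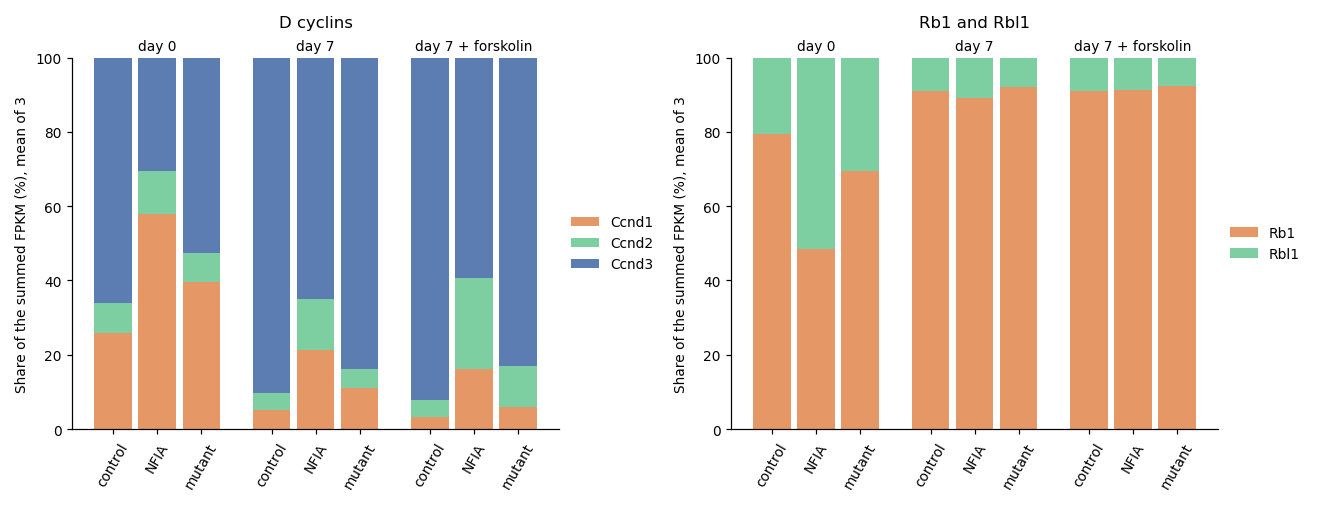
The left panel stacks the mean share (%) of Ccnd1, Ccnd2 and Ccnd3 in their summed FPKM in each of the 9 groups, and the right panel that of Rb1 and Rbl1. Ccnd3 is 66.2% of the D cyclins in control cells at day 0 and 30.6% in NFIA cells, and Rbl1 is 51.6% of the pocket pair in NFIA cells at day 0 against 20.4% in control cells.

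The make-up of the D cyclins differed between the cell types. At day 0 the sum was 134 FPKM ± 1.89 in control, 150.5 ± 2.07 in NFIA and 90.8 ± 1.75 in mutant cells (SD, n = 3). Ccnd3 was 66.2% ± 1.14 of it in control, 30.6% ± 1.26 in NFIA and 52.6% ± 0.75 in mutant cells, and Ccnd1 was 26.0% ± 0.75, 57.8% ± 1.37 and 39.5% ± 0.52. At day 7 Ccnd3 was 90.4% ± 0.71 in control and 83.8% ± 0.64 in mutant cells but 65.1% ± 4.91 in NFIA cells. After forskolin Ccnd2 made up 24.6% ± 2.56 of the D cyclins in NFIA cells, against 13.7% ± 1.72 without it. In mutant cells this share was 11.0% ± 1.44 against 5.04% ± 0.57, and in control cells 4.73% ± 0.26 against 4.598% ± 0.54. The 3 cell types did not overlap in the Ccnd1 and Ccnd3 shares of day 0 or the Ccnd3 share of day 7.

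Rb1, the retinoblastoma gene (chr14:73583480-73725629, minus strand, mm9), had the narrowest range of the 10, its highest group mean being 2.13 times its lowest. At day 0 it was at 17.6, 17.4 and 17.4 FPKM in control cells, 9.23, 9.70 and 11.2 in NFIA cells and 11.4, 12.4 and 11.8 in mutant cells. Both constructs were below control, at -0.75 (SE 0.059, adjusted p = 6.5e-07) and -0.52 (SE 0.059, adjusted p = 2.1e-05), with the mutant above NFIA by 0.22 (SE 0.059, adjusted p = 0.0069). Rb1 then rose in all 3 cell types: by 0.27 in control (SE 0.084, adjusted p = 0.0071), 0.69 in NFIA (SE 0.084, adjusted p = 9.6e-07) and 0.71 in mutant cells (SE 0.084, adjusted p = 7.9e-07). At day 7 control cells had 20.3, 23.0 and 20.8 FPKM, NFIA cells 17.8, 16.1 and 16.5, and mutant cells 17.4, 19.6 and 23.3. NFIA cells were lower than control without overlap (-0.33, SE 0.096, adjusted p = 0.010), while mutant cells overlapped both (-0.09 from control, SE 0.096, adjusted p = 0.45; 0.24 from NFIA, SE 0.096, adjusted p = 0.053). The latter difference passed without mutant replicate 1 (0.33, adjusted p = 0.0070). Forskolin gave no call; the response was -0.15 in control, -0.24 in NFIA (adjusted p = 0.053) and -0.02 in mutant cells, and that of NFIA cells passed without mutant day 7 replicate 1 or 3, or NFIA forskolin replicate 2 or 3 (adjusted p from 0.031 to 0.038).

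Rbl1, the p107 gene (chr2:156971629-157030270, minus strand, mm9), is itself an E2F target and is known to be abundant in dividing cells. At day 0 it was at 4.51, 4.48 and 4.49 FPKM in control cells. NFIA cells had 10.6, 10.2 and 11.1 FPKM, and mutant cells 5.29, 5.06 and 5.31. NFIA cells were above control by 1.09 (SE 0.040, adjusted p = 1.1e-09) and mutant cells by 0.18 (SE 0.040, adjusted p = 0.0027), with no overlap. Rbl1 then fell as the cells differentiated, by a log2 change of -0.83 in control (SE 0.080), -1.94 in NFIA (SE 0.080) and -1.21 in mutant cells (SE 0.080), with adjusted p = 4.7e-08, 5.9e-13 and 4.2e-10. Its level at day 7 was 2.10, 2.25 and 1.92 FPKM in control, 1.83, 1.74 and 2.62 in NFIA and 1.68, 1.73 and 1.67 in mutant cells, and no difference between cell types passed (adjusted p = 0.15 or more). Forskolin lowered Rbl1 further in NFIA cells, to 1.25, 1.47 and 1.26 FPKM (-0.39, SE 0.096, adjusted p = 0.0026), with responses of -0.09 in control and -0.02 in mutant cells (adjusted p = 0.56 and 0.88). The response of NFIA cells was not shown to differ from that of control cells (-0.30, SE 0.14, adjusted p = 0.11). Mutant minus NFIA was 0.37 (SE 0.14, adjusted p = 0.065), and it passed without NFIA day 7 replicate 2 (0.44, adjusted p = 0.034). The third pocket protein gene, Rbl2, was between 11.8 and 16.0 FPKM in every sample without forskolin. With forskolin it was between 7.62 and 8.61 FPKM in NFIA cells, between 9.32 and 10.3 in mutant and between 10.4 and 11.98 in control cells. Rbl2 fell with forskolin in NFIA cells (-0.71, SE 0.059, adjusted p = 5.5e-08) and in mutant cells (-0.28, SE 0.059, adjusted p = 0.0016), and its response in NFIA cells differed from that in control cells by -0.61 (SE 0.084, adjusted p = 4.6e-05). Without forskolin Rbl2 was above control in NFIA cells by 0.12 at day 0 (SE 0.035, adjusted p = 0.013) and 0.21 at day 7 (SE 0.052, adjusted p = 0.0041). Mutant minus NFIA at day 7 was -0.21 for Rbl2 (SE 0.052, adjusted p = 0.0049). The Rbl1 window (chr2:157204485-157204784 of GRCm38.p6, RefSeq) is shown for its 1 E-box in capitals, which starts 183 bases before the start site.
Rbl1, minus strand: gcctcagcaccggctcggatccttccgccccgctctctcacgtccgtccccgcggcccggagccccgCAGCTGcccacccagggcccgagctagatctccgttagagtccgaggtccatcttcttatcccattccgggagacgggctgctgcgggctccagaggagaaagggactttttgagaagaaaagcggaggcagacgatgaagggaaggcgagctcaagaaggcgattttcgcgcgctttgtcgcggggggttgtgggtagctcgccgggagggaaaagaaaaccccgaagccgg

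TTGGCA occurred in 1 of the 9 windows of the 6 members with a RefSeq entry, that of Cdkn1b, and in 14.1% of all windows. The E-box CAGCTG occurred in the upstream window of Cdkn1a and in that of Rbl1, and in 16.3% of all windows, so these matches are a description only. The cyclic AMP response element was in none of the 9 and in 1.79% of all. The E2F site varies in sequence, and only the 2 forms named above were searched (1.56% of all windows), so that nothing is read from windows without them.

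**Figure D3:**
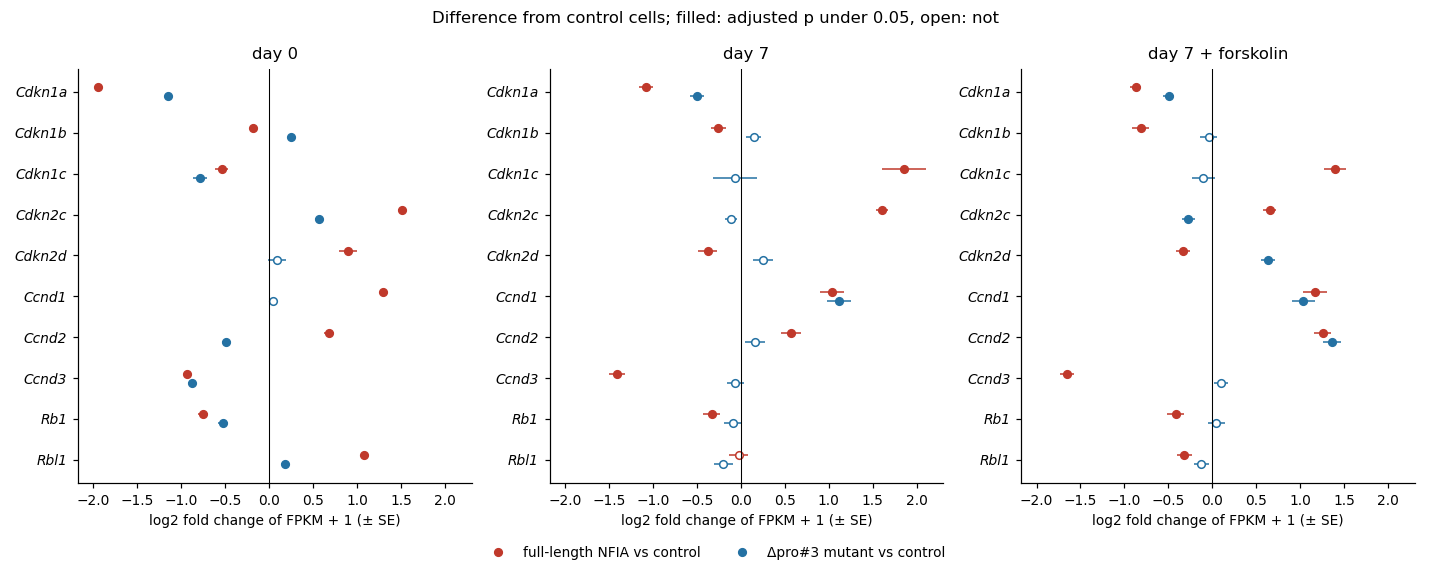
Points give the log2 fold change of FPKM + 1 from control cells with its SE (horizontal line) for NFIA cells (red) and mutant cells (blue), at day 0, day 7 and day 7 with forskolin; filled points have an adjusted p-value under 0.05. At day 0 the mutant lies between NFIA and 0 for Cdkn1a (-1.14 against -1.94) and Cdkn2c (0.57 against 1.51) and beside NFIA for Ccnd3 (-0.88 against -0.93), and at day 7 its points lie near 0 apart from Cdkn1a and Ccnd1.

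Counted over the 10 genes, NFIA cells at day 0 had 5 above control (Cdkn2c, Cdkn2d, Ccnd1, Ccnd2 and Rbl1), where 37.7% of the 12105 genes tested were called higher. They had 5 below (Cdkn1a, Cdkn1b, Cdkn1c, Ccnd3 and Rb1), where 35.6% were called lower. Only Cdkn1a passed 3-fold as well, a limit used in the study, against 5.24% of all genes. The mutant at day 0 had 3 above control (32.5% of all genes called higher) and 5 below (29.7% lower), and against NFIA cells 3 above (33.4%) and 6 below (31.9%). The call of Cdkn1c in the latter (-0.25, adjusted p = 0.016) did not pass without mutant replicate 1 (-0.17, adjusted p = 0.059).

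At day 7 NFIA cells had 4 members above control (31.3% of all genes called higher) and 5 below (41.1% lower), with Cdkn1c and Cdkn2c over 3-fold (8.17%). The mutant had Ccnd1 above control (21.3%) and Cdkn1a below (27.5%). The mutant differed from NFIA cells in 7 genes, 4 higher (34.3%) and 3 lower (29.4%), again with Cdkn1c and Cdkn2c over 3-fold (6.3%). With forskolin, NFIA cells had 4 above control (25.5%) and 6 below (47%), with Ccnd3 past 3-fold at -1.65 (8.02%). The mutant then had 3 above (19.5%) and 2 below control (27.1%), and against NFIA cells 5 above (42%) and 2 below (24.2%), with Ccnd3 past 3-fold at 1.75 (6.2%). With such shares of all genes called, these counts say little that is particular to the 10. Comparisons that share samples are not independent of each other.

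From day 0 to day 7 control cells had 4 members that rose (36% of the 12408 genes called higher) and 5 that fell (42.7% lower). NFIA cells had 5 that rose (33.2%) and 5 that fell (46.5%), and mutant cells 5 (32.8%) and 4 (46.7%). Past 3-fold were Cdkn1a and Ccnd1 in control (6.7%), Cdkn1a, Cdkn1c, Ccnd1 and Rbl1 in NFIA (10.1%) and Cdkn1a and Ccnd3 in mutant cells (6.84%). The change differed from that of control cells for 6 members in NFIA cells (71.2% of all genes) and for 8 in mutant cells (44.7%), and between mutant and NFIA cells for 8 (63.5%). Forskolin changed 1 member in control cells (20.5% of 12245 genes called), 5 in NFIA cells (55.4%) and 4 in mutant cells (35.8%). Responses differed from control for 3 members in NFIA cells (30.6%), 1 in mutant cells (4.97%) and 3 between mutant and NFIA cells (21.7%).

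**Figure D4:**
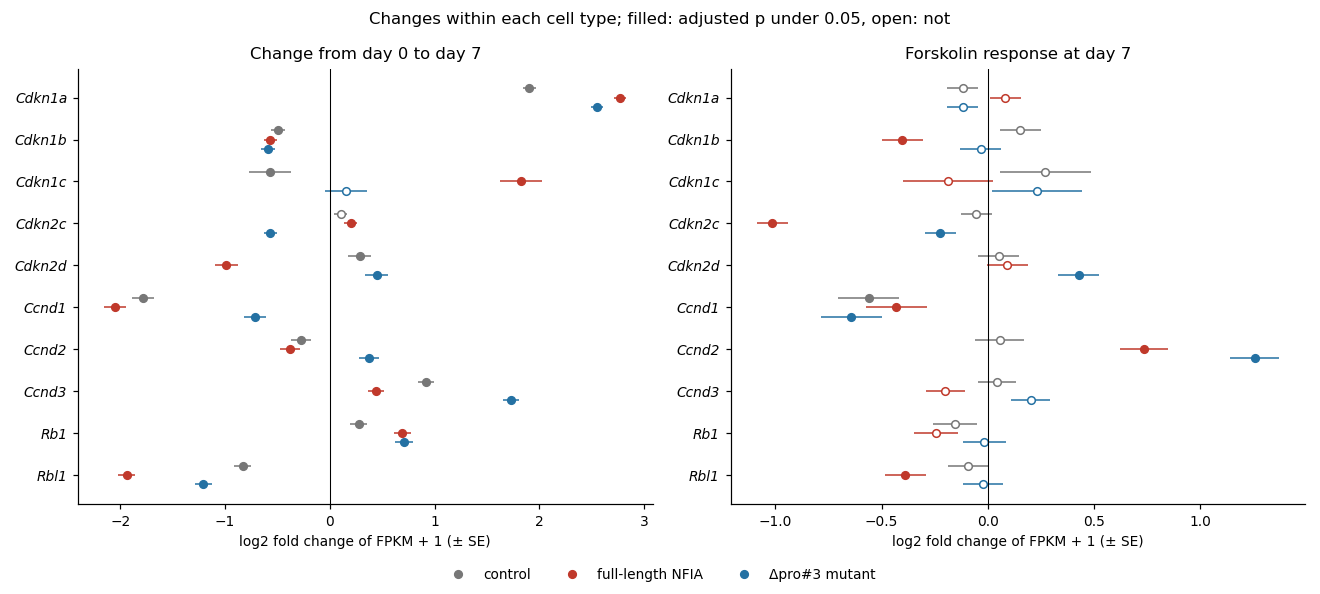
Log2 fold changes of FPKM + 1 with their SE (horizontal lines) are plotted for each gene in control (grey), NFIA (red) and mutant (blue) cells, from day 0 to day 7 on the left and from untreated to forskolin-treated at day 7 on the right; filled points have an adjusted p-value under 0.05. Cdkn1c and Cdkn2d change in opposite directions in NFIA and control cells over time (Cdkn1c 1.82 and -0.57, Cdkn2d -0.99 and 0.29), and Ccnd2 responds to forskolin in NFIA (0.73) and mutant cells (1.26), against 0.06 in control cells.

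The deposited FPKM were not scaled between samples. Median-ratio scaling raised the median log2 change of all genes by more than 0.1 in 4 of the comparisons: NFIA against control with forskolin (from -0.17 to -0.0076), the forskolin response of NFIA cells (from -0.15 to -0.041) and the change over 7 days in NFIA (from -0.11 to 0.015) and mutant cells (from -0.11 to -0.0013). It lowered that of mutant against NFIA cells with forskolin from 0.12 to 0.0085. In the forskolin response the share of higher genes among those called went from 34.3% to 51.7% in control cells, from 25.0% to 44.0% in NFIA cells and, as a difference of NFIA from control, from 29.9% to 45.2%. It went from 72.9% to 51.3% for the difference of mutant from NFIA responses. With forskolin it went from 35.1% to 49.7% for NFIA against control and from 63.4% to 50.1% for mutant against NFIA cells. Over 7 days it went from 41.6% to 51.7% in NFIA cells and from 42.2% to 53.1% for the difference of mutant from control cells. No member that was called without scaling changed its direction with it. With forskolin, the difference of NFIA from control cells went from -0.42 to -0.24 for Rb1 (adjusted p = 0.046) and that of mutant from NFIA cells from 0.38 to 0.24 for Cdkn1a (adjusted p = 0.012). The rise of Cdkn2c over 7 days in NFIA cells went from 0.20 to 0.35 (adjusted p = 1.0e-04). For Rbl1 the difference of NFIA from control with forskolin, -0.32 (adjusted p = 0.0064), became -0.20 and did not pass (adjusted p = 0.050). Without scaling it was -0.49 with 0.1 in place of 1 added to the FPKM (adjusted p = 0.0072) and -0.49 with limma-voom (adjusted p = 0.0034).

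The order of the 9 groups differed from gene to gene. For Cdkn1a it ran from NFIA, mutant and control at day 0 through NFIA and mutant at day 7 to control at day 7, and the only neighbours that overlapped were the treated and untreated groups of the same cell type. For Ccnd3 the lowest 4 groups, from NFIA at day 0 (46.1 FPKM) to NFIA at day 7 (63.2), overlapped their neighbours, control at day 0 (88.5) stood alone, and the highest 4, from mutant at day 7 (161) to mutant with forskolin (186), overlapped again. Cdkn2c split into NFIA at day 7 (35.6) and day 0 (30.8), which did not overlap, then NFIA with forskolin (17.1) and mutant at day 0 (15.5), which did, and 5 groups between 8.54 and 11.0. For Rbl1 the 3 groups of day 0 stood apart from each other and from all 6 groups of day 7. Highest over lowest group mean was 14.8 for Cdkn1a, 14.4 for Ccnd1, 9.37 for Cdkn1c, 8.045 for Rbl1, 4.17 for Cdkn2c, 4.03 for Ccnd3 and between 2.13 and 3.41 for the remaining 4.

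The genes that this pathway acts on were read from lists. At day 0, when 37.7% of all genes were higher in NFIA than in control cells, all 16 E2F targets tested, among them the replication genes Mcm2 to Mcm7 and Pcna, were higher there, with a median log2 difference of 1.36 against 0.0083 over all genes, led by thymidine kinase Tk1 (1.96, SE 0.058, adjusted p = 2.1e-10). In mutant cells 8 of the 16 were above and 3 below control, with a median of 0.11 (all genes: 32.5% higher, 29.7% lower, median 0.0095). Over the 7 days 14 of 16 fell and 1 rose in control cells (median -1.0), 16 fell in NFIA cells (-2.29) and 15 in mutant cells (-0.89), where 42.7%, 46.5% and 46.7% of all genes fell and the medians of all genes were -0.056, -0.11 and -0.11. In NFIA cells at day 7, 7 of 15 were above control and 3 below (all genes: 31.3% higher, 41.1% lower). Tk1 was the highest of them (0.85, SE 0.24, adjusted p = 0.0089); ribonucleotide reductase subunit Rrm2 was the lowest (-1.43, SE 0.13, adjusted p = 3.6e-06) and was higher in mutant than in NFIA cells by 1.68 (SE 0.13, adjusted p = 1.6e-06). Of the 17 kinases, later cyclins and their regulators, 14 were higher and 3 lower in NFIA cells at day 0. The inhibitory kinase Pkmyt1 was the highest (1.84, SE 0.047, adjusted p = 6.5e-11), and Cdk6, a partner of the D cyclins, the lowest (-0.74, SE 0.036, adjusted p = 9.8e-09). At day 7 Pkmyt1 was again the highest (2.30, SE 0.11, adjusted p = 2.9e-08), and Wee1, which also restrains Cdk1, the lowest (-1.09, SE 0.11, adjusted p = 8.4e-06), among 4 higher and 5 lower of 17, smaller shares than over all genes.

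Of 16 E2F and DREAM genes, 9 were above and 5 below control in NFIA cells at day 0 (all genes: 37.7% higher, 35.6% lower), with Mybl2 highest (1.11, SE 0.065, adjusted p = 5.2e-08) and E2f2 lowest (-2.07, SE 0.057, adjusted p = 1.1e-10). At day 7, 2 of 15 were above and 9 below (all genes: 31.3% higher, 41.1% lower), with E2f1 highest (1.28, SE 0.085, adjusted p = 3.6e-07) and the repressor E2f6 lowest (-1.40, SE 0.059, adjusted p = 1.3e-08). Cdkn1a is a classical p53 target, and 12 other targets of p53 were read beside it. At day 0 in NFIA cells 3 of them were above and 5 below control (median -0.09), near the shares over all genes, with the growth arrest gene Gadd45a at -2.33 (SE 0.043, adjusted p = 6.4e-12) and Phlda3 at 0.32 (SE 0.029, adjusted p = 2.3e-06). At day 7, 1 was above and 7 were below (median -0.46 against -0.08 over all genes), with Gadd45a at -2.89 (SE 0.15, adjusted p = 6.2e-08) and Sesn2 at 0.48 (SE 0.12, adjusted p = 0.0038). Among 8 regulators, Myog, which encodes myogenin, showed the largest fall at day 0 (-5.78, SE 0.062, adjusted p = 1.6e-13) and at day 7 (-2.69, SE 0.19, adjusted p = 6.5e-07), and Foxo1, a factor upstream of p27, rose most at day 0 (1.42, SE 0.039, adjusted p = 1.2e-10). Klf4 rose most at day 7 (0.94, SE 0.067, adjusted p = 5.7e-07). In the forskolin response of control cells 14 of the 67 tested genes of these 5 lists passed (20.9%, against 20.5% of all genes). Rrm2 rose (0.52, SE 0.12, adjusted p = 0.0048) and Mcm6 fell (-0.53, SE 0.13, adjusted p = 0.0061) among 2 higher and 3 lower of 15 E2F targets. In the other lists Trp53inp1 rose by 0.62 (adjusted p = 0.0094) and E2f5 by 0.34 (adjusted p = 0.038), while Lin9 was at -0.39 (adjusted p = 0.024), Pkmyt1 at -0.32 (adjusted p = 0.041) and Sesn1 at -0.18 (adjusted p = 0.047), each of them a fall.

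Mutant and NFIA cells at day 7 were compared over the same lists, with the NFIA samples used above. Mutant minus NFIA was 1.25 for E2f6, 1.12 for Wee1, 1.21 for Gadd45a and 1.28 for Myog. It was -1.46 for Pkmyt1, -0.44 for E2f1, -0.65 for Mcm5, -1.07 for Sesn2 and -0.98 for Foxo1, each of these 9 with an adjusted p of 0.014 or less. Of the E2F targets 2 of 15 were higher and 5 lower in mutant than in NFIA cells, and of the p53 targets 7 of 12 were higher and 1 lower (all genes: 34.3% higher, 29.4% lower).

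The genes whose levels followed each member most closely were sought over the 27 samples among 11582 genes, by Pearson correlation on the log2(FPKM + 1) scale. The samples share 3 cell types and 3 conditions, so these values describe those groups. Cdkn1a was most like Tnni1 (r = 0.990) and Mybph (0.988), both genes of muscle fibres. Ccnd3 was most like B3galnt2 (0.980) and the phosphatase Dusp13 (0.980). Rbl1 was most like Smc2 (0.991) and Kif20b (0.988), which serve chromosome condensation and cytokinesis. Cdkn2c came closest to Gatb (0.966) and Il17rb (0.964), Ccnd1 to Arhgap19 (0.980) and Tcaf2 (0.963), Cdkn1b to Ptpn13 (0.960) and Tlr4 (0.958), Rb1 to Zbtb18 (0.961) and Fgf11 (0.949), and Cdkn1c to Hamp2 (0.937) and Atp10d (0.930). The closest genes were less close for Cdkn2d (Tinf2, 0.875, and Rrm2, 0.874) and Ccnd2 (Piga, 0.868, and Sdc4, 0.861).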

How the data were processed

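RNA-seq of polyadenylated RNA covered 27 samples in 9 groups, taken from the deposited labels. The authors aligned paired-end reads to mm9 with STAR 2.5.3a, kept unique mappers, counted fragments on the matched strand and deposited FPKM, unscaled between samples. The annotation release is not given in the sources used here. Every FPKM value gave a whole number of fragments (tolerance 0.01), 9567769 to 27230965 per sample, and this depth limits the precision of genes near 1 FPKM. Analyses used R 4.3.3, limma 3.58.1 and Python 3.11.15. Linear models on log2(FPKM + 1) with trended moderated variances were fitted to the 9 samples of a condition (12105, 12324 and 12121 genes, mean FPKM at least 0.5) or to the 18 samples of 2 conditions (12245 and 12408 genes), and 2-sided p-values were Benjamini-Hochberg adjusted over those genes. The self-test ran on simulated data. Alternatives were median-ratio scaling, pseudocount 0.1, other filters (none, or a mean FPKM of 5), no trend, all 27 samples, only the compared groups, limma-voom on fragments, a replicate block, each sample left out and, added after seeing the data, 3 libraries left out together. The 10 genes, the gene lists and the tests were chosen with earlier results of these data known. All 10 were tested in every comparison, although not every value is printed. From each list the largest rise and fall past the threshold were named in NFIA against control at days 0 and 7. The same was done in mutant against NFIA at day 7 and in the forskolin response of control cells. Gene positions are those of GENCODE vM1 on mm9, and 6 of the 10 had RefSeq promoter windows. The study's other experiments are not analysed here.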

Additional observations from a re-analysis of the deposited data

Results flagged for a closer look

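The members below changed differently between cell types by limma's test of the difference itself, given as a log2 value with its adjusted p; comparisons that use the same samples are not independent of each other.

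For the forskolin response, NFIA minus control was -0.55 for Cdkn1b (adjusted p = 0.0059), -0.96 for Cdkn2c (4.2e-06) and 0.68 for Ccnd2 (0.0049). Mutant minus control was 1.20 for Ccnd2 (3.6e-04). Mutant minus NFIA was 0.79 for Cdkn2c (5.3e-05), 0.52 for Ccnd2 (0.030) and 0.40 for Ccnd3 (0.035), of which the Ccnd2 and Ccnd3 values each failed to pass without 1 or other of 7 samples.

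For the change from day 0 to day 7, NFIA minus control was positive for Cdkn1a (0.87, adjusted p = 1.1e-07), Cdkn1c (2.39, 1.1e-06) and Rb1 (0.42, 0.0050). It was negative for Cdkn2d (-1.27, 1.6e-06), Ccnd3 (-0.48, 9.3e-04) and Rbl1 (-1.11, 1.8e-07).

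Mutant minus control was positive for Cdkn1a (0.65, adjusted p = 1.2e-05), Ccnd1 (1.07, 2.1e-05), Ccnd2 (0.65, 8.8e-04), Ccnd3 (0.81, 1.5e-05) and Rb1 (0.43, 0.0075). It was negative for Cdkn2c (-0.67, 1.0e-05) and Rbl1 (-0.38, 0.012). For Cdkn1c it was 0.72 with an adjusted p of 0.048, which failed to pass without 1 or other of 14 samples (adjusted p from 0.053 to 0.12).

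Mutant minus NFIA was positive for Cdkn2d (1.44, adjusted p = 5.8e-07), Ccnd1 (1.34, 7.5e-07), Ccnd2 (0.75, 1.1e-04), Ccnd3 (1.29, 2.9e-08) and Rbl1 (0.73, 2.8e-05). It was negative for Cdkn1c (-1.67, 7.3e-05) and Cdkn2c (-0.77, 9.4e-07). For Cdkn1a it was -0.22 with an adjusted p of 0.032, which failed to pass without 1 or other of 6 samples (adjusted p from 0.052 to 0.090).

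For Ccnd1, NFIA minus control was -0.26 over 7 days and did not pass (adjusted p = 0.12), but it was -0.43 (adjusted p = 0.0011) without NFIA day 7 replicate 3, whose Ccnd1 level of 25.8 FPKM was the highest of its group.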

How the results depend on the processing

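Over 210 values of the 10 genes (21 comparisons) and 4980 recomputed values, no called direction was reversed. Of the counts of members past the threshold, these moved by over 1.5 times. For mutant against control at day 7, 2 members became 4 with all 27 samples in 1 fit. For the difference of mutant from NFIA in forskolin response, 3 became 1 with median-ratio scaling, with no filter on low values or with only the compared groups, and 5 with all 27 samples. For the difference in change over 7 days, 6 became 3 for NFIA against control and 8 became 5 for mutant against NFIA at a minimum mean FPKM of 5, where fewer members were tested. With 1 sample left out, the count for the forskolin response of control cells ran from 0 to 1 (0 without forskolin replicate 2 of control cells), that for the difference of mutant from control in this response from 1 to 2 (2 without control day 7 replicate 2), and that for mutant from NFIA from 1 to 4. Apart from the setting with a smaller set of genes, the cause was not tested.

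Leaving out 1 sample lost a call for 13 of the 210 values and gained one for 14. Scaling lost 6 calls and gained 3, the lack of a filter lost 3, the compared groups alone lost 4, all 27 samples in 1 fit lost 4 and gained 10, limma-voom gained 3, and the smaller pseudocount changed none. Without the 3 libraries that stood apart, calls were gained for Ccnd2 in mutant against control cells at day 7 (0.29, adjusted p = 0.021), Rb1 in mutant against NFIA cells at day 7 (0.33, adjusted p = 0.0070) and Ccnd3 in the forskolin response of NFIA cells (-0.26, adjusted p = 0.033). They were lost for Cdkn2c in the forskolin response of mutant cells (-0.20, adjusted p = 0.098) and Cdkn1a for mutant minus NFIA over 7 days (-0.17, adjusted p = 0.084). Rb1 in mutant against NFIA cells with forskolin went from 0.46 to 0.30 and still passed. Samples of the same replicate number did not deviate together on average (mean correlation from -0.031 to 0.018 over the 5 fits). Single pairs ran from -0.18 to 0.36, and pairs of different numbers from -0.30 to 0.27. The 3 libraries that stood apart were all replicate 1 of their groups. A mean over many pairs cannot show whether some samples shared a culture or batch, so pairing by number was not settled. With the replicate block, 1 of the 210 calls was lost, Cdkn1c for mutant minus control over 7 days (adjusted p = 0.065), and 1 gained, Cdkn1b for mutant minus NFIA in forskolin response (adjusted p = 0.033). Cdkn2d, Cdkn1c outside differentiated NFIA cells and, at day 7, Rbl1 lay at a few FPKM or less, where the added 1 lessens the fold change and the fewer fragments widen its error.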
